A study of Mus musculus with 6 samples.

Results

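The genes described here are the heat shock transcription factors, the cytosolic and mitochondrial chaperones with their co-chaperones, the collagen chaperone Serpinh1, and the subunits of the TRiC chaperonin. They were chosen by name, from a list of 37 symbols and from no measured value. Of these, 36 had a row among the 14228 genes of the table, and Dnaja1 had none. After a filter on low counts, 34 of the 36 were tested among 10148 genes, and Hsf2 and Dnajb4 were below the filter. RNA came from mouse stomach cells sorted as live and podoplanin-positive after gating out CD31, CD45 and EpCAM, the surface markers of endothelial, immune and epithelial cells. All mice were triple-transgenic iLgr5;GLI2A animals, 8 weeks old. In this gastric cancer model an activated GLI2 is turned on in cells that express Lgr5. Cancer-associated fibroblasts (CAF, 3 libraries) came from mice given tamoxifen in corn oil by gavage for 5 days. These mice then had doxycycline in their chow for 3 weeks, with doxycycline and sucrose in the drinking water during the first 3 days. Normal fibroblasts (normal, 3 libraries) came from mice of the same genotype given corn oil and no doxycycline, so the drugs and the cancer cannot be told apart. CAF libraries 1, 2 and 3 pooled the cells of 1, 2 and 2 mice, and normal libraries 1, 2 and 3 those of 1, 1 and 2 mice.

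Heat shock factor 1, encoded by Hsf1, is held inactive by chaperones in unstressed cells. When unfolded proteins draw the chaperones away, it forms trimers, binds heat shock elements in promoters and induces HSP70, HSP90, small heat shock proteins and J-domain proteins. The element is built of inverted repeats of the bases NGAAN. Newly made proteins pass from HSP70, which is driven by its J-domain partners, to HSP90 or into the closed chambers of the chaperonins, HSP60 in mitochondria and TRiC in the cytosol. HSF1 also acts in fibroblasts of tumours, and the published work on these mice is about HSF1.

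Total counts ran from 644522 to 6422568 for CAF and from 768420 to 3259644 for normal fibroblasts. Levels are given as CPM, counts scaled to a common library size. The size of each library was first multiplied by its TMM factor, from 0.758 for normal library 1 to 1.17 for CAF library 3. A count of 0 allowed a level of up to 0.406 to 4.39 CPM, that of 3 counts, depending on the library; this floor covers counting error only. Transcripts of gastric gland cells, from a list of 20 pit, neck, chief, parietal and enteroendocrine markers found in the table, took 0.604% to 0.856% of the counts in the CAF libraries. They took 20.0%, 16.4% and 4.12% in normal libraries 1, 2 and 3 (95% exact binomial intervals of 20.0 to 20.1%, 16.3 to 16.5% and 4.08 to 4.17%). The 9 squamous forestomach markers summed to 98.0, 112 and 122 CPM in CAF libraries 1, 2 and 3. In the normal libraries they summed to 1990, 2836 and 155 CPM, so that normal library 3 was again the one nearest to CAF. Of the gland and squamous markers, Psca and Krt1 passed an adjusted p of 0.05, both lower in CAF (adjusted p = 0.0347 and 0.0451 by edgeR). The 11 fibroblast markers, all detected in every library, summed to 10713, 27273 and 32960 CPM in CAF libraries 1, 2 and 3 and to 5823, 11261 and 14978 CPM in the normal libraries. Of the gate genes, Ptprc (CD45) was at 0, 5.52 and 1.35 CPM in CAF and 0, 3.80 and 0 CPM in normal fibroblasts. Pecam1 (CD31) was at 0 to 9.39 CPM over all libraries. Epcam was at 233, 127 and 114 CPM in CAF libraries 1, 2 and 3. It was at 150, 78.5 and 13.8 CPM in the normal libraries, with overlap and a higher mean in CAF, unlike the gland markers (log2 fold change 0.94, edgeR adjusted p = 0.623). The 5 immune markers found summed to 36.6, 544 and 138 CPM in CAF and 44.5, 332 and 33.8 CPM in normal fibroblasts, with S100a8 at 401 CPM in CAF library 2 and Lyz2 at 170 CPM in normal library 2; of the 5, 2 were at 0 in CAF library 1 and in normal libraries 1 and 3. The 4 endothelial markers summed to 21.95 to 42.3 CPM in CAF and 7.504 to 34.2 CPM in normal fibroblasts. Among them Cdh5 was detected in every library, at 6.76 to 14.6 CPM in CAF and 1.25 to 5.07 CPM in normal fibroblasts, and 2 of the 4 were at 0 in CAF library 1 and in normal library 3. The libraries also differed in base composition. Genes with GC-rich 3′ ends were relatively high in CAF library 1 and normal libraries 1 and 3 (Spearman rho of level with GC content over 9627 genes of 0.39, 0.19 and 0.26), the GC-rich libraries. They were relatively low in CAF libraries 2 and 3 and normal library 2 (-0.44, -0.46 and -0.23), the AT-rich libraries. The labels give no batch. In bulk RNA, fewer cells of a type and less RNA per cell cannot be told apart, in these sorted cells too.

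Promoters are shown first for 5 of the 6 members with an unadjusted p under 0.05, to show where the core of a heat shock element lies before the start of transcription. The sixth, Dnajb1, is not shown because neither of its 2 promoters in the table holds the core. The core searched was an inverted pair of repeats, GAANNTTC or TTCNNGAA, each of which reads the same on both strands. Sequences are from RefSeq on GRCm38.p6 (the mm10 build), 5′ to 3′ on the strand of the gene, with the core in capitals, and positions count back from -1, the base before the start. The windows of Hspa1a (chr17:34972217-34972296, minus strand), Hspa1b (chr17:34959299-34959378, minus strand), Fkbp4 (chr6:128438764-128438843, minus strand) and Hspb1 (chr5:135887776-135887855, plus strand) overlap no annotated exon. For Hspe1 (chr1:55088053-55088082, plus strand) only 30 bases are given, since the site lies within an annotated untranslated exon of Hspd1, which is read in the opposite direction.
Hspa1a: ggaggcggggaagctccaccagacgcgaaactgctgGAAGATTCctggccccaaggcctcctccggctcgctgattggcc
Hspa1b: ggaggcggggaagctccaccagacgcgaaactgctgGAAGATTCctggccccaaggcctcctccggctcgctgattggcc
Hspb1: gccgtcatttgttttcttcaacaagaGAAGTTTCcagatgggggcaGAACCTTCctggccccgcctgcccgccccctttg
Fkbp4: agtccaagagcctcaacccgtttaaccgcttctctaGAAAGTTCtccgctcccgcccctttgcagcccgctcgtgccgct
Hspe1: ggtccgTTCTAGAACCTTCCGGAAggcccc

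Hspa1a and Hspa1b both carried 1 core at position -104, and their promoters were identical at 247 of the 250 bases before the start. Hspb1 carried cores at -117 and -97, and Fkbp4 1 at -151. In the promoter shared by Hspe1 and Hspd1, 3 cores overlapped to form an unbroken array, which starts at -89 from the Hspe1 start. Among the 29 member symbols in that RefSeq table of promoters, 13 had a core in the 250 bases before a start, at 15 of 38 starts. Among all 32851 promoters listed there, 12.8% (4218) had one. Hsf1, Hspa8, Hspa9, Hsp90aa1, Hsp90ab1, Cryab, St13 and Cct4 were not listed there, so their promoters were not searched. A run of 3 repeats, GAANNTTCNNGAA or TTCNNGAANNTTC, was found for Hspd1, Hspe1 and Dnajb6, and in 0.466% of all promoters. Dnajb6 did not stand apart between the groups in its level. A core was also found for Cct2, Cct5, Cdc37, Hsph1 and Hspd1, each with an unadjusted p over 0.05 by edgeR. Dnaja1 and Dnajb4, which were not tested, had one too. A match describes letters and not binding, which was not measured here.

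No member passed an adjusted p of 0.05 (edgeR quasi-likelihood, Benjamini-Hochberg over all genes tested), against 1.10% of all genes (0.897% higher and 0.207% lower in CAF). The members furthest apart were the stress-inducible HSP70 genes Hspa1a and Hspa1b, 2.91-fold and 2.97-fold lower in CAF, and the small heat shock protein gene Hspb1, 2.55-fold higher. At an unadjusted p under 0.05 there were 6 of 34 members, 1 higher (Hspb1) and 5 lower (Hspa1a, Hspa1b, Fkbp4, Dnajb1 and Hspe1), a share close to the 15.3% of all genes tested. Levels did not overlap between the groups for 2 members higher in CAF, Hspb1 and Cct2, beside 10.6% of all genes. Nor did they for 5 members lower in CAF, Hspa1a, Hspa1b, Hspe1, Dnajb1 and Hsf1, beside 9.35% of all genes. The gaps of Dnajb1 and Hsf1 held only with the TMM factors, and over total counts their groups overlapped. The median log2 fold change of the 34 members was 0.05 and that of all genes 0.06. The members thus did not move as a block: 19 had a positive and 15 a negative fold change.

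Other tests on the same counts gave other calls. DESeq2 called 4 of 34 members, beside 7.81% of all genes: Hspa1a, Hspa1b and Fkbp4 lower and Hspb1 higher in CAF (adjusted p = 1.65e-06, 0.00297, 0.0461 and 0.00448). Limma-voom called none, beside 0.641% of all genes, with Hspa1a at an adjusted p of 0.0527. By the test in the authors' deposited table, 3 members had an adjusted p under 0.05, beside 6.37% of its genes: Hspa1a (log2 fold change -1.56, adjusted p = 1.98e-05), Hspa1b (-1.59, 0.00582) and Hspb1 (1.33, 0.00857).

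**Figure D1:**
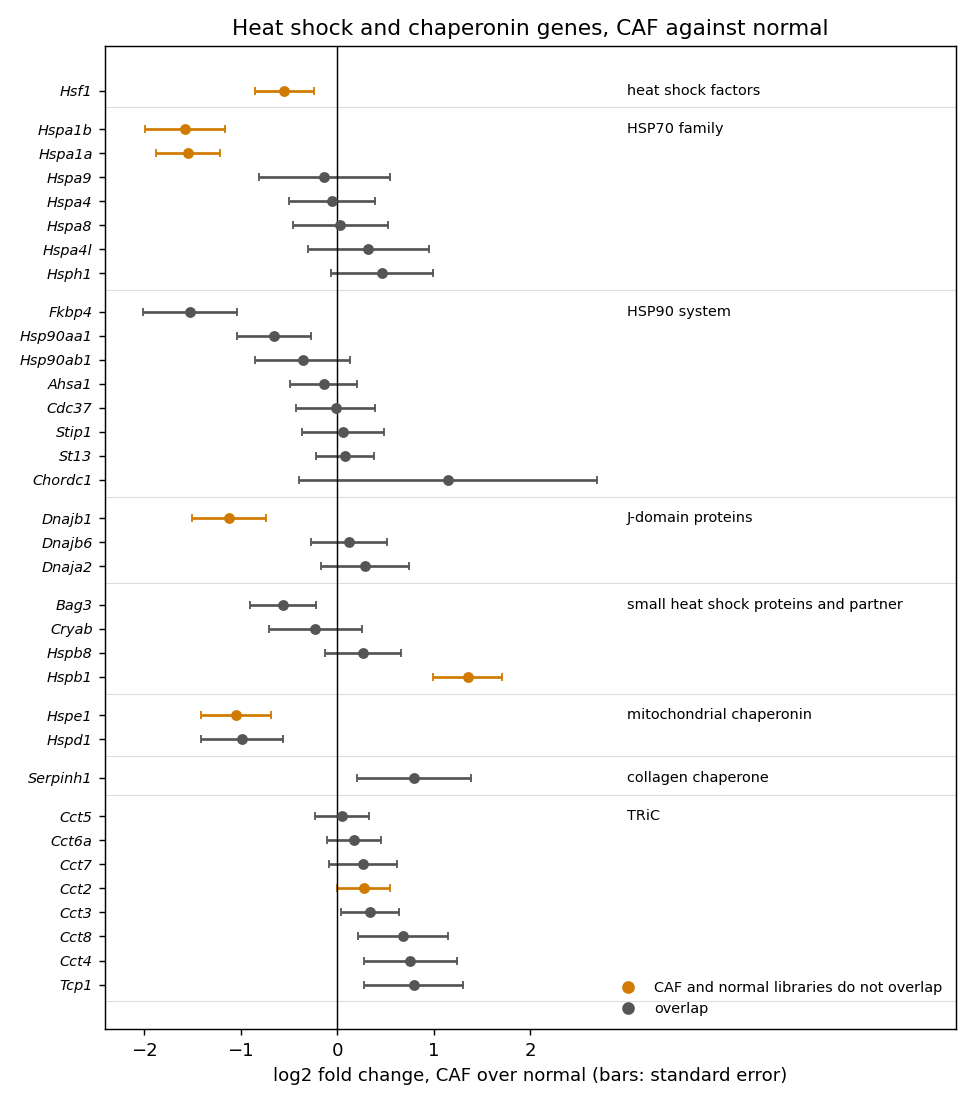
Log2 fold change of CAF over normal (x axis; bars are standard errors from edgeR, 3 libraries per group) for the 34 tested members, grouped by role. Orange marks members whose CAF and normal libraries do not overlap in CPM, which for Hsf1 and Dnajb1 holds only with the TMM factors. Hspa1a and Hspa1b lie furthest left, at -1.54 and -1.57, and Hspb1 lies furthest right at 1.35. The 8 TRiC subunits lie between 0.05 and 0.79.

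Among the transcription factors, Hsf1 (chromosome 15, 76477422 to 76501913) was at 55.6, 50.1 and 42.1 CPM in CAF libraries 1, 2 and 3. Normal libraries 1, 2 and 3 had it at 66.5, 58.3 and 90.0 CPM. In CPM each CAF library was below each normal library, though CAF library 1 and normal library 2 were close. Over total counts, without the TMM factors, the groups overlapped. CAF library 1, with 38 of 644522 counts, was then above normal library 2, with 46 of 903176. The log2 fold change was -0.55 ± 0.31 (SE) with an adjusted p of 0.477 by edgeR, so the difference was within the spread the test allows. HSF1 is regulated largely by its state in the protein, which RNA does not show. Hsf2, a related factor active in development and in the germ line, had 2, 8 and 9 counts in CAF and 2, 2 and 0 in normal fibroblasts, too few to compare at this depth.

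Hspa1a (chromosome 17, 34969190 to 34972156) encodes the HSP70 that is scarce in resting cells and made on stress. Its level was 477, 652 and 451 CPM in CAF libraries 1, 2 and 3. In the normal libraries, in the same order, it was 1631, 1414 and 1561 CPM. The normal libraries were tightly grouped and all far above the CAF libraries, with means of 527 ± 109 and 1535 ± 111 CPM (SD, n = 3 in each group). The log2 fold change was -1.54 ± 0.33 (SE), 2.91-fold lower in CAF, and the adjusted p by edgeR was 0.0705 (1.65e-06 to 0.370 over 16 alternative settings). Hspa1b (chromosome 17, 34956436 to 34959238), the neighbouring copy that encodes nearly the same protein, was at 274, 612 and 466 CPM in CAF and at 1707, 1258 and 1056 CPM in normal libraries. All 3 normal libraries were again above all CAF libraries, with a wider spread than for Hspa1a. Its log2 fold change was -1.57 ± 0.41 (SE; adjusted p = 0.109 by edgeR, 0.00297 to 0.489 over 16 settings). Both genes were called without normal library 3 (adjusted p = 0.0223 and 0.0400 by edgeR), in a fit that called 1193 of 11888 genes tested.

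Reads may be exchanged between these copies, since their coding sequences were identical at 99.5% of 1926 aligned positions. Their annotated 3′ untranslated regions, of 813 and 646 bases, were much less alike, with 51.6% identity in a gapped alignment, and the libraries count 3′ ends. With the counts of both genes summed, the level was 751, 1264 and 917 CPM in CAF and 3339, 2671 and 2617 CPM in normal libraries. The sum kept the gap between the groups (log2 fold change -1.56 ± 0.37 SE, edgeR adjusted p = 0.0871).

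For Hspa1a and Hspa1b every CAF library was below every normal library, so any subset with both groups must show them lower in CAF. The direction within subsets therefore adds no support, and only the sizes are given. Against normal library 3 alone, which had the lowest gland share among the normal libraries, Hspa1a was 2.96-fold and Hspa1b 2.34-fold lower in the CAF mean. Among the GC-rich libraries, Hspa1a was 3.35-fold and Hspa1b 5.05-fold lower in CAF, and among the AT-rich libraries, 2.56-fold and 2.34-fold lower. The 3′ ends of Hspa1a and Hspa1b have 44.6% and 31.8% GC, against a median of 45.2% over all genes. With the GC side as a covariate the log2 fold changes were -1.55 and -1.78. The part of base composition was not tested beyond that fit. The summed level of 22 immediate early genes, which also respond to tissue dissociation, was 15288, 13556 and 12711 CPM in CAF and 17569, 14478 and 22583 CPM in normal libraries. These sums overlapped between the groups. Of 21 immediate early genes tested, 17 had a negative and 4 a positive fold change and 0 were called, beside 1.10% of all genes. Their median on the log2 scale was -0.45, against 0.06 over all genes. The groups did not overlap for 3 genes lower and 1 higher in CAF, beside 9.35% and 10.6% of all genes tested. The smallest p-values were those of Ier3 (log2 fold change 1.66, adjusted p = 0.0998 by edgeR), Atf3 (-1.30, 0.121) and Klf2 (-1.14, 0.219). The part of these genes' response in the HSP70 levels was not tested.

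Other HSP70 genes showed no such gap. Hspa8, the HSP70 present in all cells, was at 2519, 1076 and 869 CPM in CAF and 1966, 1203 and 1188 CPM in normal libraries. CAF library 1 was the highest of all and CAF libraries 2 and 3 the lowest, so the groups overlapped fully (log2 fold change 0.03 ± 0.49 SE; the sign turned without CAF library 1, at -0.58, and in limma-voom). Hspa9, or mortalin, the HSP70 of mitochondria, was at 26.3, 112 and 89.5 CPM in CAF and at 95.9, 134 and 23.8 CPM in normal libraries. CAF library 1 and normal library 3 were both low. The nucleotide exchange factors Hspa4, Hspa4l and Hsph1, which reset HSP70, had log2 fold changes of -0.05, 0.32 and 0.46 (adjusted p = 0.978, 0.870 and 0.758 by edgeR). Hsph1 was higher in CAF in all 17 alternative settings without passing in any, and the signs of Hspa9, Hspa4 and Hspa4l turned in some of them.

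**Figure D2:**
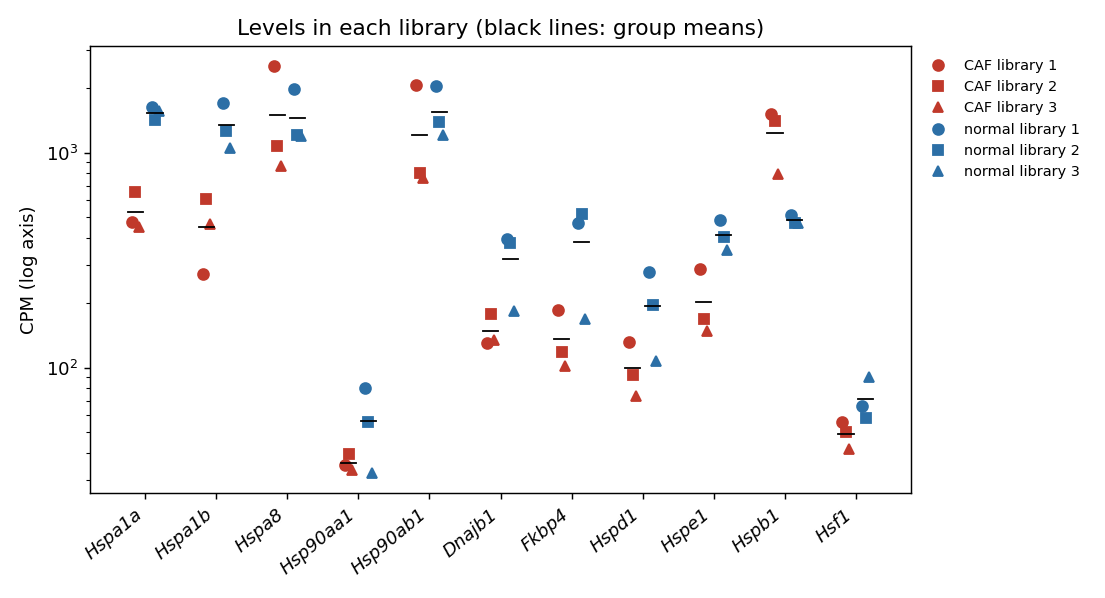
Level in each library (y axis, CPM on a log axis) for 11 members; red points are CAF and blue points normal libraries 1 to 3 (circle, square, triangle), and black lines are group means. Hspa1a stands at 451 to 652 CPM in CAF and 1414 to 1631 CPM in normal libraries, while Hspb1 stands at 798 to 1516 and 469 to 514 CPM.

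The J-domain protein Dnajb1, a stress-induced partner that delivers substrates to HSP70, was at 130, 178 and 135 CPM in CAF libraries. In the normal libraries it was at 398, 381 and 184 CPM. Normal library 3 was only just above CAF library 2, and normal libraries 1 and 2 were far above. Over total counts, without the TMM factors, normal library 3 (147 of 768420 counts) was below CAF library 2 (1292 of 6422568). The log2 fold change was -1.12 ± 0.38 (SE, adjusted p = 0.215 by edgeR) and -0.25 with normal library 3 as the only control. Without that library it was -1.46, with a call (adjusted p = 0.0223 by edgeR), in the fit that called 1193 of 11888 genes. The other J-domain genes were near balance, Dnaja2 at 25.6 ± 7.86 against 21.4 ± 9.62 CPM and Dnajb6 at 27.9 ± 10.0 against 24.9 ± 4.30 CPM (CAF against normal, SD, n = 3 in each group). Dnajb4 had 9 counts in CAF library 3, 1 in normal library 1 and 0 elsewhere.

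Neither gene of the HSP90 pair passed the test, and both had lower means in CAF. Hsp90aa1, the stress-inducible gene, was at 35.1, 39.7 and 33.5 CPM in CAF and at 80.8, 55.7 and 32.5 CPM in normal libraries. Normal libraries 1 and 2 were above all CAF libraries and normal library 3 was below them (log2 fold change -0.65 ± 0.39 SE, edgeR adjusted p = 0.501; 0.21 with normal library 3 as the only control). Hsp90ab1, the constitutive gene, was at 2064, 805 and 762 CPM in CAF and 2044, 1393 and 1209 CPM in normal libraries. CAF library 1 was as high as normal library 1, and CAF libraries 2 and 3 were below every normal library (log2 fold change -0.36 ± 0.49 SE, edgeR adjusted p = 0.804). Without CAF library 1 the log2 fold change was -0.98 (edgeR adjusted p = 0.249), and with normal library 3 as the only control it was 0.037.

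Among HSP90 co-chaperones, Fkbp4 (chromosome 6, 128429735 to 128438677) stood out. It encodes FKBP52, an immunophilin of steroid receptor complexes, and was at 186, 117.9 and 102 CPM in CAF and at 468, 519 and 169 CPM in normal libraries. The high values were those of normal libraries 1 and 2, with 20.0% and 16.4% gland transcripts, and normal library 3 lay within the CAF range. The log2 fold change was -1.52 ± 0.49 (SE, adjusted p = 0.183 by edgeR) and -0.28 with normal library 3 as the only control. Without that library it was -1.95 (adjusted p = 0.0156 by edgeR), in the fit that called 1193 of 11888 genes. The part of gland and squamous transcripts in this difference was not tested beyond these values. Stip1 (HOP, which bridges HSP70 and HSP90), Ahsa1 (an activator of the HSP90 ATPase), Cdc37 (the kinase-loading co-chaperone) and St13 (HIP) had log2 fold changes of 0.06, -0.14, -0.01 and 0.09, with adjusted p-values of 0.905 to 0.994; the sign of each turned in some settings.

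Chordc1, an HSP90-binding protein gene, was detected in 3 libraries only. It had 94 and 114 counts in CAF libraries 2 and 3, 13 counts in normal library 2, and 0 counts in CAF library 1 and normal libraries 1 and 3. The 3 libraries without a count are the GC-rich ones. In normal library 1 a count of 0 allowed up to 1.22 CPM, against 13.0 to 16.5 CPM in the libraries with counts. The 3′ end of Chordc1 has 36.2% GC, against a median of 45.2% over all genes. Its log2 fold change was 1.15 ± 1.54 (SE; adjusted p = 0.797 by edgeR) and was positive in 16 of 17 alternative settings. In the other one, with the GC side of the library as a covariate, it was -0.21. The part of base composition was not tested beyond that fit.

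**Figure D3:**
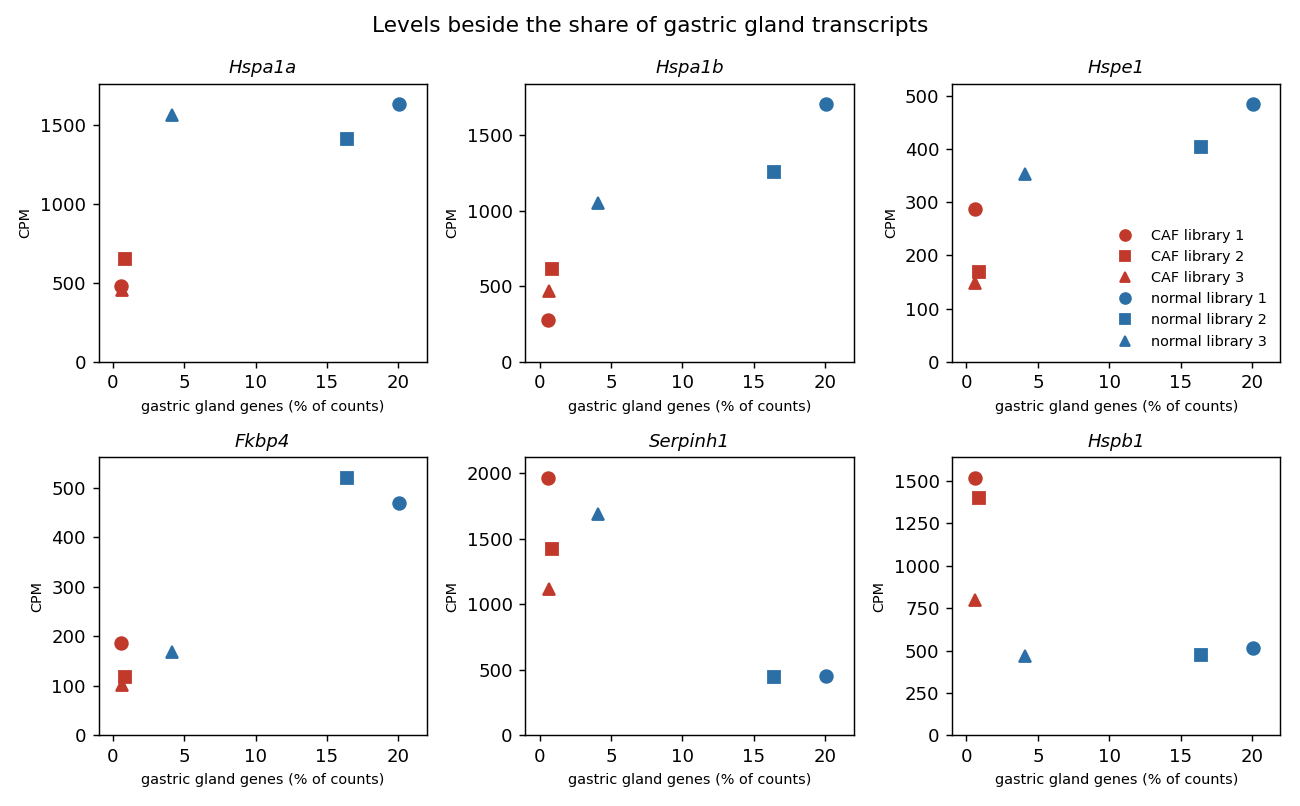
Level of 6 members (y axes, CPM) against the percentage of each library's counts in gastric gland markers (x axes); red is CAF, blue is normal, and symbols are library numbers. Normal library 3, at 4.12%, stays with the other normal libraries for Hspa1a, Hspa1b, Hspe1 and Hspb1, and lies within the CAF range for Fkbp4 and Serpinh1.

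Small heat shock proteins hold unfolded proteins in solution, and Hspb1 (HSP27; chromosome 5, 135887919 to 135889563) also acts on actin filaments. Its level was 1516, 1396 and 798 CPM in CAF and 514, 471 and 469 CPM in normal libraries. All CAF libraries were above the normal libraries, which were closely grouped (1237 ± 385 against 485 ± 25.5 CPM, SD, n = 3 in each group). The log2 fold change was 1.35 ± 0.36 (SE; adjusted p = 0.115 by edgeR), with a range of 1.18 to 1.59 and of adjusted p from 0.00448 to 0.466 over 17 settings. Against normal library 3 alone it was 2.64-fold higher, and among the GC-rich and the AT-rich libraries 3.08-fold and 2.33-fold higher. Since its groups did not overlap, only the sizes of these folds are informative. The 3′ end of Hspb1 has 57.2% GC, against a median of 45.2% over all genes. With the GC side as a covariate its log2 fold change was 1.42, and the part of base composition was not tested beyond that fit. Smooth muscle, pericytes and epithelia also express Hspb1. The 5 smooth muscle and pericyte markers, all detected in every library, summed to 732, 380 and 228 CPM in CAF and 390, 279 and 513 CPM in normal libraries. Of these, 3 had a negative and 2 a positive fold change. Myh11, smooth muscle myosin, was called lower in CAF, at 20.5, 47.9 and 30.6 against 184, 134 and 141 CPM (adjusted p = 0.0486 by edgeR). Des and Cspg4 had higher means in CAF, with overlap and no call (log2 fold changes 1.12 and 1.30, adjusted p = 0.336 and 0.556 by edgeR). The 5 simple epithelial markers summed to 1123 to 2629 CPM in CAF and 1038 to 4724 CPM in normal libraries. Of these, 4 had a negative and 1, Epcam, a positive fold change, and 0 were called. Krt19 was lower in CAF without overlap, at 155, 155 and 151 against 986, 434 and 464 CPM (adjusted p = 0.0647 by edgeR). The muscle and epithelial sums each overlapped between the groups, and the part of these cells in the Hspb1 level was not tested.

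The other members of this class did not follow Hspb1. Hspb8 was at 89.2, 160 and 138 CPM in CAF and 80, 162 and 82.5 CPM in normal libraries, a full overlap (adjusted p = 0.822 by edgeR). Its partner Bag3, an HSP70 co-chaperone that sends clients to autophagy and an HSF1 target, was at 86.3, 127 and 133 CPM in CAF and 167, 223 and 124 CPM in normal libraries. Its log2 fold change was -0.56 ± 0.34 (SE), and normal library 3 lay among the CAF libraries. Cryab, the small heat shock protein of lens and muscle, was at 79.0, 122 and 144 CPM in CAF and 115, 65.9 and 225 CPM in normal libraries. Its normal libraries spread on both sides of CAF (adjusted p = 0.885).

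Both mitochondrial chaperonin genes had lower means in CAF, without passing the test. Hspe1, the HSP10 lid (chromosome 1, 55088132 to 55091307), was at 288, 169 and 149 CPM in CAF and 485, 404 and 354 CPM in normal libraries. No CAF library reached a normal library (log2 fold change -1.04 ± 0.36 SE, 2.06-fold lower, edgeR adjusted p = 0.221; 0.0593 to 0.610 over 17 settings). Hspd1, the HSP60 chamber (chromosome 1, 55077835 to 55088243), was at 132, 92.6 and 73.6 CPM in CAF and 280, 196 and 108 CPM in normal libraries. Here normal library 3 was below CAF library 1 (log2 fold change -0.98 ± 0.43 SE, adjusted p = 0.327). With normal library 3 as the only control Hspe1 was at -0.77 and Hspd1 at -0.08. GENCODE lists 6 pseudogenes named after Hspe1 and 5 named after Hspd1, and how reads that fit several copies were counted is not given in the sources used here. Of the 6 tested genes among other mitochondrial chaperones and proteases, all 6 had a negative fold change and 0 were called, beside 1.10% of all genes. Lonp1, the matrix protease, had -0.87 and Trap1, the mitochondrial HSP90, -0.82 (adjusted p = 0.207 and 0.249 by edgeR). The groups did not overlap for either, beside 9.35% of all genes tested that were lower in CAF without overlap.

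Serpinh1 encodes HSP47, the collagen-specific chaperone of the endoplasmic reticulum and an HSF1 target. It was at 1962, 1418 and 1112 CPM in CAF and 453, 446 and 1688 CPM in normal libraries. Normal library 3 lay within the CAF range and the other normal libraries were far below it. The log2 fold change was 0.80 ± 0.59 (SE, adjusted p = 0.606 by edgeR) and -0.13 with normal library 3 as the only control. Without that library it was 1.66 (adjusted p = 0.0293 by edgeR), in the fit that called 1193 of 11888 genes. Among 13 genes of collagen chains and collagen-modifying enzymes, none had a negative fold change, the median was 1.41, and 0 were called, beside 1.10% of all genes. Col4a1, a basement membrane collagen, was at 1732 ± 102.8 against 382 ± 302 CPM (CAF against normal, SD, n = 3 in each group; log2 fold change 2.19, adjusted p = 0.109 by edgeR). Unlike for Serpinh1, each CAF library was above every normal library, normal library 3 included. This held for 4 of the 13 genes, beside 10.6% of all genes tested.

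TRiC is a double ring with 8 different subunits in each ring, and folds actin and tubulin among other proteins. All 8 subunit genes had a positive fold change, beside 53.9% of all genes tested, and 0 were called, beside 1.10% of all genes. Their median log2 fold change was 0.31. Cct2 was at 225, 271 and 241 CPM in CAF and 208, 204 and 198 CPM in normal libraries (log2 fold change 0.27 ± 0.27 SE, edgeR adjusted p = 0.715). It was the only subunit of 8 whose groups did not overlap, and by a small margin. Among all genes tested, 10.6% were higher in CAF without overlap. Cct3 was at 301, 219 and 192 CPM in CAF and 189, 198 and 174 CPM in normal libraries. Cct7 was at 423, 271 and 205 against 275, 241 and 228 CPM. In both, CAF library 1 was the highest.

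Cct5 and Cct6a were the most even subunits. Cct5 was at 231, 237 and 202 CPM in CAF and 189, 234 and 225 CPM in normal libraries. Cct6a was at 167, 177 and 139 against 143, 127 and 159 CPM. Their log2 fold changes were 0.05 and 0.17, within a standard error of 0.28 for each. The sign of Cct5 turned without normal library 1 (-0.07) and that of Cct7 without CAF library 1 (-0.06), and the other 6 subunits kept a positive sign in all 17 settings.

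Tcp1, Cct4 and Cct8 had the largest fold changes of the complex and the widest spread. Tcp1 was at 76.1, 195 and 207 CPM in CAF and 69.4, 151 and 58.8 CPM in normal libraries. Cct4 was at 51.2, 129 and 123 against 35.5, 89.9 and 57.5 CPM, and Cct8 at 67.3, 135 and 88.1 against 59.6, 92.5 and 30 CPM. In each of these genes CAF libraries 2 and 3 were above CAF library 1 and normal library 2 above the other normal libraries. These 3 are the AT-rich libraries. The mean of those 3 libraries was 2.71-fold, 2.37-fold and 2.01-fold that of the other 3 for Tcp1, Cct4 and Cct8, and 0.774-fold to 1.13-fold for the remaining subunits. Within the GC-rich libraries the CAF level was 1.19-fold, 1.1-fold and 1.5-fold the normal level for these 3 genes, and within the others 1.33-fold, 1.4-fold and 1.2-fold. The 3′ ends of Cct4 and Cct8 have 35.8% and 35.4% GC, below the median of 45.2%, but that of Tcp1 has 50.8%, and that of Cct6a, an even subunit, has 36.2%. The part of base composition in these values was not tested beyond the fit with the GC side as a covariate. That fit called none of the 34 members, but neither did the main fit, so its calls cannot show that part.

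**Figure D4:**
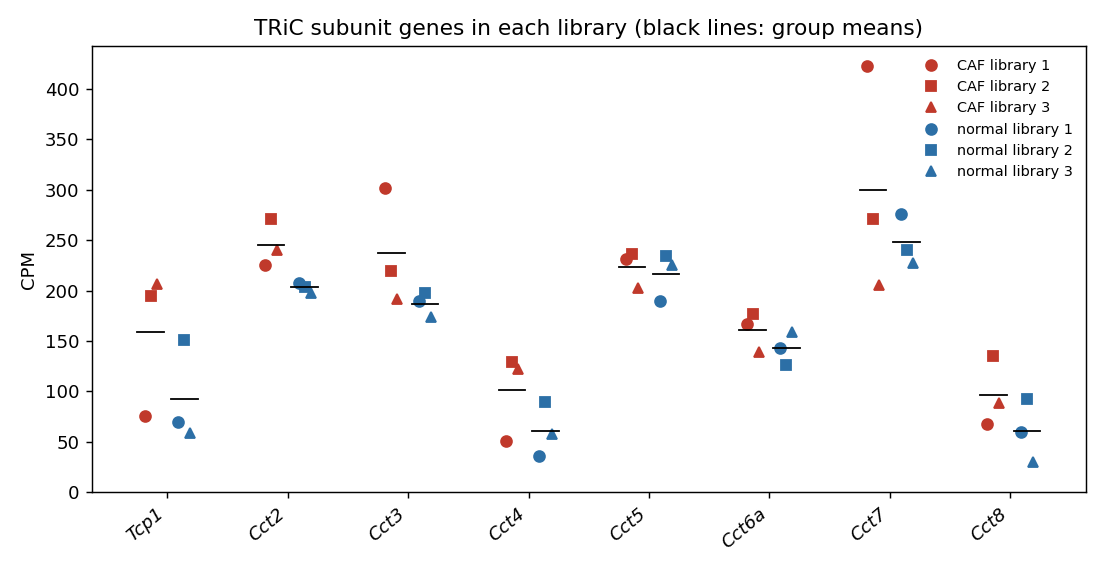
Level (y axis, CPM) of the 8 TRiC subunit genes in each library; red is CAF, blue is normal, symbols are library numbers and black lines are group means. Cct2, Cct5 and Cct6a are tight in both groups, while Tcp1, Cct4 and Cct8 are high in CAF libraries 2 and 3 and normal library 2.

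Among the partners and clients of TRiC, some genes differed by more than any TRiC subunit, without passing the test. Of 8 tested prefoldin and cofactor genes 6 had a positive and 2 a negative fold change and 0 were called, beside 1.10% of all genes. The groups did not overlap for 4 genes higher and 1 lower in CAF, beside 10.6% and 9.35% of all genes tested. Pfdn4 and Pfdn1, subunits of the prefoldin that hands actin and tubulin to TRiC, had log2 fold changes of 1.16 and 0.73, and Pfdn2 of -0.82 (adjusted p = 0.251, 0.312 and 0.381 by edgeR). Of 9 actin and tubulin genes 7 had a positive and 2 a negative fold change and 0 were called, beside 1.10% of all genes. The groups did not overlap for 3 genes, all higher in CAF, beside 10.6% of all genes tested. Among them Tubb5 was at 480 ± 166 against 230 ± 48.5 CPM (CAF against normal, SD, n = 3 in each group, adjusted p = 0.219 by edgeR). The 12 endoplasmic reticulum chaperones had a median log2 fold change of 0.45 and the 25 proteasome genes of 0.29. In either list 0 were called, beside 1.10% of all genes. Among 26 further cytosolic co-chaperones tested, 15 were positive and 11 negative and 0 were called, beside 1.10% of all genes. Bag2, an inhibitor of the ubiquitin ligase that works with HSP70, was the one of smallest p, at 92.2, 46.5 and 42.1 CPM in CAF and 14.7, 20.3 and 17.5 CPM in normal libraries. All CAF libraries were above all normal libraries (log2 fold change 1.77, adjusted p = 0.0897 by edgeR). Of these co-chaperones, 2 were higher and 2 lower in CAF without overlap, beside 10.6% and 9.35% of all genes tested.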

How the data were processed

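RNA was counted at transcript 3′ ends by MARS-seq, per the labels' protocols. Tools named in the submitters' processing notes are STAR, HTSeq, cutadapt and DESeq2 (no version), with mm10 as the build. Not given in the sources used here are the annotation, the use of strand and whether molecular identifiers were collapsed. Raw counts by gene symbol, as deposited, were tested. The table also holds a deposited normalized signal (count divided by a size factor for each library, checked against the raw counts), deposited regularized log2 values (not used), and the authors' log2 fold change, p-value and adjusted p-value. Every listed gene had at least 6 counts in some library.

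Genes were kept by filterByExpr and tested with edgeR 4.0.16 in R 4.3.3: TMM factors, quasi-likelihood F test of CAF against normal over all 6 libraries, Benjamini-Hochberg adjustment over 10148 genes, threshold 0.05. Standard errors were derived from the F statistic. The test was tried on simulated counts with 200 changed genes. Alternatives were DESeq2 1.42.0, limma-voom (limma 3.58.1), other factors and filters, each library left out, normal library 3 as the only control, number of mice as a covariate, gland genes removed and Hspa1a with Hspa1b summed. The GC side of the library (the sign of the correlation of its levels with the GC content of the last 500 bases of each gene's transcript in GENCODE M21, genes with a mean of at least 20 counts) was added after seeing the data.

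The members were chosen by name, and the lists of other genes with earlier results of these data known. All members are named. Of other genes, the text names called genes of a list, or else up to 3 of smallest p. Of the cell type markers it also names some that were not called.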

Additional observations from a re-analysis of the deposited data

How the results depend on the processing

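Among all genes, 112 were called; DESeq2 called 792, limma-voom 65, and with normal library 3 as the only control 0. With each library left out the number ranged from 0 to 1193, with 0 without normal library 1 and 1193 of 11888 tested without normal library 3. Among the members 0 were called; DESeq2 called 4 and the fits without a library 0 to 5. The 5 were called without normal library 3: Dnajb1, Fkbp4, Hspa1a, Hspa1b and Serpinh1. The other alternatives called no member.

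The direction held in every alternative for 17 of 34 members and turned in at least 1 for the other 17, none of them called there. With normal library 3 as the only control, where the median over all genes was 0.29, the log2 fold change turned to 0.63 for Hspa4, 1.78 for Hspa9, 0.21 for Hsp90aa1, 0.037 for Hsp90ab1, -0.039 for Dnajb6, -0.13 for Serpinh1 and -0.21 for St13. With the GC side as a covariate it turned to -0.24 for Hspa4l, -0.020 for Dnaja2, -0.21 for Chordc1, 0.053 for Ahsa1 and 0.22 for Cdc37. With the number of mice it turned to 0.28 for Hspa4, -0.16 for Hspa4l and -0.0075 for St13, and with limma-voom to -0.035 for Hspa8, 0.017 for Hspa9, -0.074 for Dnajb6 and -0.0036 for Stip1. Cdc37 turned to 0.0044 without a filter and 0.018 with at least 10 counts in 3 libraries. With a library left out, values that turned ranged from -0.58 to 0.31 for Hspa8, -0.35 to 0.22 for Hspa4, -0.067 to 0.63 for Hspa4l, -0.61 to 0.32 for Hspa9, -0.045 to 0.58 for Dnaja2, -0.17 to 0.30 for Dnajb6, -0.56 to 0.28 for Cryab, -0.40 to 0.34 for Stip1, -0.42 to 0.070 for Ahsa1, -0.42 to 0.20 for Cdc37, -0.028 to 0.22 for St13, -0.067 to 0.12 for Cct5 and -0.056 to 0.49 for Cct7. The cause was not tested. No paired analysis was possible because the library numbers follow the accession order and pair no mice. Of members under 20 CPM (Hsf2, Dnajb4, Hspa4l and Chordc1) the depth allows no firm comparison.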

Other observations

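Ratios of members within a library do not depend on library scaling. The ratio of Hspa1a to Hspa8 counts, inducible to constitutive HSP70, was 0.189, 0.606 and 0.519 in CAF libraries 1, 2 and 3 and 0.830, 1.17 and 1.31 in normal libraries 1, 2 and 3, with no overlap. For Hspa1b to Hspa8 it was 0.109, 0.568 and 0.535 in CAF and 0.868, 1.05 and 0.888 in normal libraries, again with no overlap. The same kind of pair in HSP90, Hsp90aa1 to Hsp90ab1, gave 0.0170, 0.0494 and 0.0440 in CAF and 0.0395, 0.0400 and 0.0269 in normal libraries, which overlap. Hspe1 to Hspd1, the lid to the chamber of the mitochondrial chaperonin, stood at 1.82 to 2.19 in CAF and 1.73 to 3.29 in normal libraries. Hspa1b to Hspa1a was lowest in CAF library 1 (0.574) and normal library 3 (0.676) and between 0.890 and 1.05 in the other libraries. Hspb1 to Hspb8 overlapped between the groups, at 5.79 in CAF library 3 and 6.43 in normal library 1. For that pair CAF libraries 1 and 2 were above all normal libraries. These ratios were chosen after the values were seen and were not tested.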
